A study of Mus musculus with 4 samples.

Results

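Central vein type endothelial cells were selected on their UMIs, the unique molecules counted for each gene in each cell, from the nonparenchymal cells of mouse liver. A cell entered the gate with at least 2 UMIs of Wnt9b plus Rspo3 and at least 3 UMIs of the endothelial genes Pecam1, Cdh5, Egfl7 and Ptprb together. It also had to hold at most 2 UMIs of the Kupffer cell gene Clec4f, at most 3 of the stellate cell gene Dcn and at most 2 of the leukocyte gene Laptm5. The gate held 1446 cells. They were drawn from 15799 endothelial cells, which met the same limits without the Wnt9b and Rspo3 condition, and from 25861 cells in which 200 genes or more were detected and mitochondrial genes gave 25% of the UMIs or less. The CCl4 group was 2 wild-type male mice given intraperitoneal carbon tetrachloride as 10 µl per g of a mixture of 1 part with 9 parts of corn oil. The corn oil group was 2 wild-type male mice given the oil alone. All 4 mice were 8 to 10 weeks old, were injected 2 times a week for 5 weeks, were killed 48 hours after the last injection and gave 1 single-cell library each.

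Central veins drain the liver lobule. Their endothelium secretes the Wnt ligands Wnt2 and Wnt9b and the R-spondin Rspo3, which amplifies Wnt signals, and these act on the neighbouring hepatocytes to hold the pericentral gene programme. The sinusoids that open into the vein are lined by a fenestrated endothelium that clears waste through scavenger receptors such as Stab1, Stab2 and Mrc1, whereas vein endothelium is continuous and carries adhesion and clotting proteins such as Selp and Vwf. Carbon tetrachloride is made toxic in pericentral hepatocytes.

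The gate held 288 and 267 cells in CCl4 mice 1 and 2, and 496 and 395 cells in corn oil mice 1 and 2. Pairs of values below are given in this order of mice. Summed UMIs of the gate cells were 2815814 and 2243889 in the CCl4 mice and 2896750 and 1952247 in the corn oil mice. The median gate cell held 8685.5 and 7752 UMIs in the CCl4 mice and 5088.5 and 4141 UMIs in the corn oil mice, so CCl4 cells were deeper. Levels are given as CPM, the UMIs of a gene per 1000000 UMIs summed over the gate cells of a mouse, and a count of 0 allows up to 1.07 and 1.34 CPM in the CCl4 mice and 1.04 and 1.54 CPM in the corn oil mice. The file headers place the CCl4 1 table in a separate run of the counting software from the other 3, which cannot be told apart from that mouse. Of all cell barcodes, 333 occurred in more than 1 library, and 1 of these was a gate cell.

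Wnt9b, at chr11:103727364-103749821, and Rspo3, at chr10:29452416-29535867, both on the minus strand of GRCm38, chose the cells, so their levels are a description. Wnt9b was at 672 and 940 CPM in CCl4 gate cells and at 769 and 701 CPM in corn oil gate cells, and the groups overlapped. Rspo3 was at 907 and 1102 CPM in CCl4 and at 1046 and 1179 CPM in corn oil, again with overlap. A UMI of both genes was held by 51.0% and 60.7% of CCl4 gate cells and by 59.5% and 59.0% of corn oil gate cells. Entry on Wnt9b alone was the route of 35.8% and 35.2% of CCl4 cells and of 29.0% and 24.8% of corn oil cells. At the edge of the rule, cells with 1 UMI of the pair lay just outside and had 165 and 95.8 CPM of Selp, the adhesion receptor P-selectin, in CCl4 and 11.6 and 23.3 CPM in corn oil. Cells with 2 UMIs lay just inside and had 207 and 165 CPM of Selp in CCl4 and 31.6 and 36.4 CPM in corn oil. Cells with 5 or more UMIs had 595 and 650 CPM in CCl4 and 357 and 352 CPM in corn oil, so Selp climbed with the gate UMIs in every mouse.

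The label was checked against sinusoidal genes, which a vein cell should lack. A sinusoidal load was computed for each cell as its UMIs of Stab1, Stab2, Clec4g, Fcgr2b, Oit3, Dnase1l3 and Gpr182 per 10000 UMIs. The median load of gate cells was 48.3 and 38.6 in CCl4 and 161 and 170 in corn oil, and the groups did not overlap. Among the other endothelial cells the median was 161 and 158 in CCl4 and 223 and 212 in corn oil. Gate cells therefore carried less sinusoidal RNA than the other endothelial cells of the same mouse in all 4 mice, yet most corn oil gate cells still carried much of it. At 2 gate UMIs the median load was 83.9 and 93.7 in CCl4 and 217 and 203 in corn oil, where it was close to that of other endothelial cells. At 5 or more gate UMIs the median load was 36.0 and 31.2 in CCl4 and still 112 and 117 in corn oil. Loads under 60 were found in 170 and 192 CCl4 gate cells, or 59.0% and 71.9%, and in 87 and 59 corn oil gate cells, or 17.5% and 14.9%. The value of 60 was chosen after the loads had been seen, and 78 and 57 CCl4 cells and 26 and 21 corn oil cells lay between 45 and 75. The cells are called central vein gate cells after their rule, since the corn oil ones went against the label in part. The sums of the 2 groups hold different mixes of low-load and high-load cells, and a change of the mix and a change within cells cannot be told apart in them. For that reason levels on either side of 60 stand beside the main genes below, as descriptions with no test. The low-load cells also differed in load between groups. Loads under 30 were held by 88 of 170 and 102 of 192 in CCl4 and by 58 of 87 and 34 of 59 in corn oil. Gate cells at 60 or more differed in load too. Loads of 60 to 90 were held by 62 of 118 and 30 of 75 of them in CCl4. In corn oil such loads were held by 32 of 409 and 24 of 336. Of other endothelial cells, 7.97% and 8.34% in CCl4 and 3.60% and 3.22% in corn oil lay under 60. The part of these differences in load in the gaps between groups below, on either side of 60, was not tested.

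**Figure D1:**
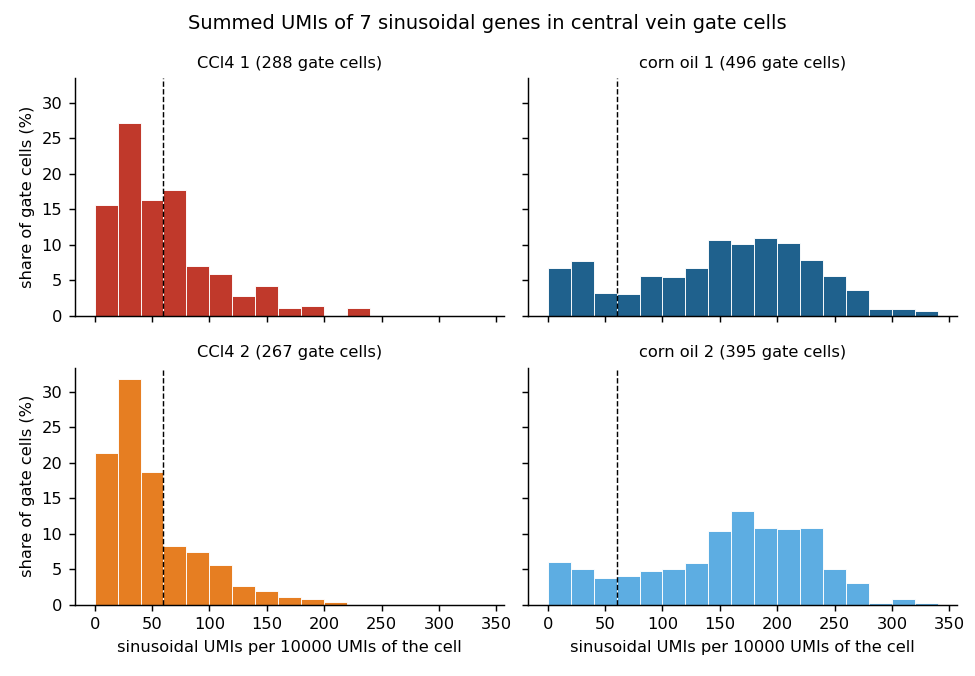
Share of gate cells (y axis, percent of the gate cells of a mouse) by sinusoidal load (x axis, UMIs of 7 sinusoidal genes per 10000 UMIs of the cell), with CCl4 mice at the left and corn oil mice at the right and a dashed line at 60. CCl4 cells gather at low loads with medians of 48.3 and 38.6, whereas corn oil cells form a small group at low loads and a large one around medians of 161 and 170.

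Markers of other cells were low in the gate but not all equal between groups. Summed over their lists, monocyte and macrophage markers came to 148 and 299 CPM in CCl4 and 67.0 and 44.6 CPM in corn oil, and without Lyz2, the most abundant of them, to 43.7 and 90.9 CPM in CCl4 and 22.4 and 13.3 CPM in corn oil. Kupffer markers came to 285 and 234 CPM in CCl4 and 160 and 164 CPM in corn oil, but most of the gap was C1qb, without which they came to 99.8 and 86.0 CPM in CCl4 and 85.3 and 75.8 CPM in corn oil. Clec4f, a defining Kupffer marker, was at 2.84 and 4.01 CPM in CCl4 and 7.59 and 5.12 CPM in corn oil. The gate limited it to 2 UMIs a cell, so its level was held low by the rule, as were those of Dcn and Laptm5. Outside the gate rule, Vsig4 was at 2.13 and 4.46 CPM in CCl4 and 5.87 and 5.63 CPM in corn oil. Marco went the other way, at 6.04 and 3.57 CPM in CCl4 and 1.04 and 0.512 CPM in corn oil. Stellate and fibroblast markers came to 360 and 513 CPM in CCl4 and 207 and 249 CPM in corn oil, and this gap was Hgf, at 238 and 370 CPM in CCl4 and 33.1 and 51.7 CPM in corn oil. Other endothelial cells held Hgf at 271 and 381 CPM in CCl4 and 88.3 and 110 CPM in corn oil. Without Hgf the sum was lower in CCl4, at 122 and 144 CPM against 174 and 197 CPM in corn oil. T and NK markers came to 0.710 and 0.891 CPM in CCl4, with 6 of 8 at 0 in each mouse, and to 41.1 and 5.63 CPM in corn oil. Hepatocyte markers, at 242 and 390 CPM in CCl4 and 147 and 369 CPM in corn oil, overlapped between groups. The endothelial list, which includes the gate genes, stood at 8956 and 9475 CPM in CCl4 and 16648 and 19067 CPM in corn oil, and without Ptprb and Kdr at 4646 and 5068 CPM in CCl4 and 5145 and 5606 CPM in corn oil. The markers left out of these sums were chosen after their levels had been seen. All 8 monocyte and macrophage markers and all 12 stellate and fibroblast markers had UMIs in both CCl4 mice, and 1 of the 10 Kupffer markers was at 0 in CCl4 mouse 1. The part of these markers in the results below was not tested.

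The share of endothelial cells held by the gate was near 10% in 3 of the 4 mice. It was 9.93% and 9.98% in the CCl4 mice and 9.77% and 7.68% in the corn oil mice, a mean of 9.96% ± 0.030 in CCl4 and 8.72% ± 1.48 in corn oil (SD, n = 2 mice each). The difference of 1.23 percentage points had an exact two-sided permutation p = 0.33, which is the smallest that 2 against 2 mice can give. Its size rested on corn oil mouse 2, since without that mouse it was 0.188 points, and without corn oil mouse 1 it was 2.28 points. The threshold of 2 UMIs is easier to reach in a deep cell, so every cell was also thinned to a fixed depth before gating. At 3000 UMIs a cell the shares were 6.78% and 7.28% in CCl4 and 7.27% and 6.12% in corn oil, with 0 and 1 CCl4 gate cells and 25 and 57 corn oil gate cells left out as too shallow, and the groups overlapped (difference 0.332 points, exact permutation p = 0.667). At 1500 UMIs they were 4.45% and 5.49% in CCl4 and 5.60% and 4.57% in corn oil, and the difference turned to -0.115 points (exact permutation p = 0.667). Counted among all cells kept, the gate held 4.69% and 4.75% in CCl4 and 7.24% and 5.45% in corn oil, a difference of -1.62 points (exact permutation p = 0.33). With 2 against 2 mice no difference in the share could pass a threshold of 0.05 at any depth. These are shares of recovered cells.

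**Figure D2:**
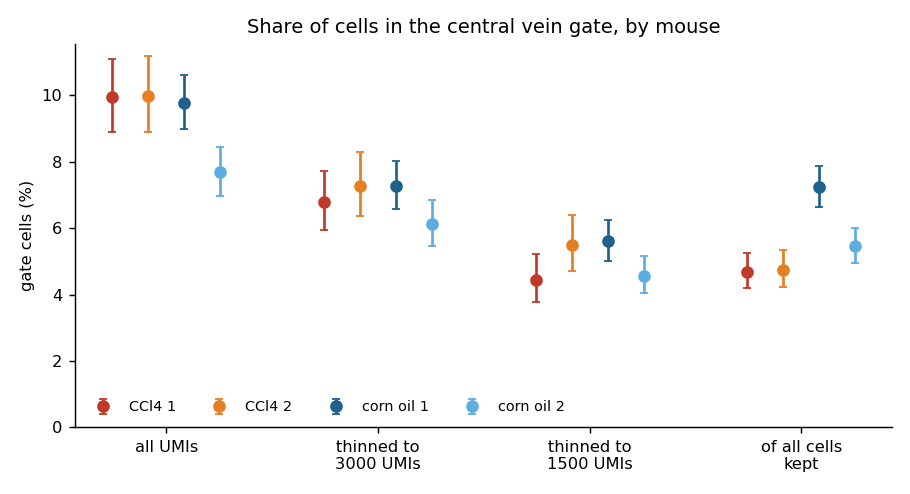
Share of cells in the central vein gate (y axis, percent) for each mouse, among endothelial cells with all UMIs, after thinning to 3000 and to 1500 UMIs a cell, and among all cells kept. Points are mice and bars are 95% Wilson intervals for counting error; CCl4 mice 1 and 2 at 9.93% and 9.98% stand above corn oil mouse 2 at 7.68% with all UMIs, and the mice interleave at 1500 UMIs.

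Gate cells were next compared with the other endothelial cells of the same mice, which held 0 or 1 UMI of Wnt9b plus Rspo3. Genes outside the gate were compared by edgeR's quasi-likelihood test on UMIs summed per mouse and kind of cell, with the mouse as a block. A gene is called at a Benjamini-Hochberg adjusted p under 0.05 over all genes tested. Of 11455 genes, 622 (5.43%) were called higher and 635 (5.54%) lower in gate cells, the background shares for each list of this comparison. In all, 1257 (11%) were called. The count was 674 without CCl4 mouse 1 and 535 without CCl4 mouse 2. Of the 12 central vein and pericentral genes outside the gate, 11 were higher in gate cells and 1 was lower, against those background shares, with a median log2 difference of 1.44 beside -0.0070 over all genes tested. In bulk sums like these, fewer cells that express a gene and less RNA per cell cannot be told apart.

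Selp, which tethers leukocytes to the vessel wall, stood out most among these. It was at 493 and 514 CPM in CCl4 and 210 and 193 CPM in corn oil gate cells, against 63.9 and 44.4 CPM in CCl4 and 6.74 and 4.32 CPM in corn oil among other endothelial cells. Gate cells were higher in 4 of 4 mice (log2 4.09 ± 0.39 SE, edgeR adjusted p = 0.000872). With each cell thinned to 3000 UMIs, a Selp UMI was found in 56.6% and 57.1% of CCl4 and 34.6% and 29.9% of corn oil gate cells, and unthinned in 74.7% and 74.9% of CCl4 and 43.1% and 36.7% of corn oil gate cells. Cells with 3 or more Clec4f UMIs were taken as Kupffer cells, with no limit on endothelial genes, and held a median of 15524 to 18060 UMIs. Their thinned share with Selp was 5.44% and 3.95% in CCl4 and 3.13% and 1.61% in corn oil. The sinusoidal gene Stab2 was found in 42.7% and 37.0% of them in CCl4 and 60.3% and 63.7% in corn oil, also thinned. They thus carried endothelial RNA and are no clean background. Lhx6, a LIM homeobox transcription factor gene, was at 154 and 238 CPM in CCl4 and 293 and 222 CPM in corn oil gate cells, against 11.6 to 18.4 CPM among other endothelial cells (log2 4.03 ± 0.13, edgeR adjusted p = 1e-05). Wnt2 was at 268 and 363 CPM in CCl4 and 400 and 360 CPM in corn oil gate cells, against 69.6 and 62.0 CPM in CCl4 and 178 and 146 CPM in corn oil among the others (log2 1.71 ± 0.22, edgeR adjusted p = 0.00326). The adhesion gene Cdh13 was higher by 2.44 on the log2 scale, Vwf by 2.10, the thrombomodulin gene Thbd by 1.83 and the tetraspanin gene Cd9 by 1.18, all called. Nos3, the endothelial nitric oxide synthase, passed by little (log2 1.10 ± 0.29, edgeR adjusted p = 0.0492). Its call was lost without CCl4 mouse 1, CCl4 mouse 2 or corn oil mouse 1 and in DESeq2. It was at 653 and 542 CPM in CCl4 and 247 and 135 CPM in corn oil gate cells. Among the others it was at 174 and 166 CPM in CCl4 and 172 and 115 CPM in corn oil. Thinned to 3000 UMIs, 48.2% and 26.6% of corn oil gate cells held a Nos3 UMI, against 38.0% and 27.1% of the others. Fabp4, a fatty acid binding protein, was called at 1.13 and lost without either corn oil mouse. Ackr1, a chemokine scavenger of venules elsewhere in the body, was the member that was lower in gate cells, at 39.8 and 31.2 CPM in CCl4 and 8.98 and 11.8 CPM in corn oil, against 60.2 and 54.5 CPM in CCl4 and 30.02 and 28.5 CPM in corn oil among the others (log2 -1.02 ± 0.18).

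The genes with the widest gap to other endothelium, by the rule for named genes, were Nts, Sprr2b, Serpinb9b, Cyp1b1, Fndc1, Inhba, Fmo2, Samd5, Tgfb2, Col6a3, Stc2 and Rnf165, all called, of which Stc2 lost the call against other cells of like depth. Nts, which encodes the peptide neurotensin, was at 222 and 289 CPM in CCl4 and 13.8 and 24.1 CPM in corn oil gate cells and at 0.853 CPM or less in the other endothelial cells of every mouse (log2 8.04 ± 0.58, edgeR adjusted p = 0.000234). Without CCl4 mouse 2 this was 7.18 and without corn oil mouse 1 it was 8.88. Fmo2, a flavin monooxygenase, was at 132 and 163 CPM in CCl4 and 372 and 393 CPM in corn oil gate cells, against 1.28 to 7.12 CPM in the others (log2 6.15 ± 0.39). Inhba, the subunit of activin A, was at 189 and 42.3 CPM in CCl4 and 57.7 and 67.6 CPM in corn oil gate cells and at 1.92 CPM or less in the others, with CCl4 mouse 1 the highest (log2 6.65 ± 0.46, and 7.55 without CCl4 mouse 2). Tgfb2, a transforming growth factor beta ligand, was at 32.0 and 88.7 CPM in CCl4 and 39.4 and 48.1 CPM in corn oil gate cells and at 1.40 CPM or less in the others (log2 5.97 ± 0.31). Bmp4, a bone morphogenetic protein, was at 19.2 and 61.5 CPM in CCl4 and 76.6 and 77.3 CPM in corn oil gate cells and at 4.32 CPM or less in the others (log2 4.71 ± 0.60, and 5.64 without CCl4 mouse 1). Of 17 BMP pathway genes tested in this comparison, Bmp4 was higher in gate cells, and 4, among them Bmp2 and Bmp6, were lower, with 2 lower without CCl4 mouse 1, CCl4 mouse 2 or corn oil mouse 1.

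Genes of the periportal sinusoid were lower in gate cells. Of 10 periportal genes, 7 were lower and 1 higher, and the 7 held whichever mouse was left out. Dll4, a Notch ligand, was at 30.5 and 31.2 CPM in CCl4 and 82.5 and 97.3 CPM in corn oil gate cells, against 293 and 323 CPM in CCl4 and 244 and 293 CPM in corn oil among the others (log2 -2.39 ± 0.32, edgeR adjusted p = 0.00349). Msr1, a scavenger receptor, was at 141 to 234 CPM in gate cells and 596 to 1279 CPM in the others (log2 -2.39), and Efnb2, an arterial ephrin ligand, was lower too (log2 -1.897). By the rule for named genes the furthest down were Esm1, Gja5, Tox2, Vegfc, Ctsj, Galnt15, Slc45a4 and Adgrg6. Esm1, a VEGF-induced proteoglycan, was at 25.2 and 4.46 CPM in CCl4 and 5.18 and 4.10 CPM in corn oil gate cells, against 167 and 166 CPM in CCl4 and 15.8 and 31.4 CPM in corn oil among the others (log2 -3.17 ± 0.40, and -2.52 without CCl4 mouse 2). Gja5, an arterial connexin, was at 1.38 to 8.71 CPM in gate cells and 15.1 to 56.8 CPM in the others (log2 -2.98, and -3.86 without corn oil mouse 2). Ctsj, a cathepsin gene, did not pass the filter on low counts without either CCl4 mouse, so it was not tested there. Of 13 arterial and portal vessel genes, 5 were lower and 2 higher, with 3 lower without either CCl4 mouse, and of 6 lymphatic genes 5 were tested and Flt4 alone was lower. Of 23 sinusoidal identity genes tested, 14 were lower in gate cells, but without CCl4 mouse 1 the count was 5 and without CCl4 mouse 2 it was 6.

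Of 18 genes of continuous endothelium, caveolae and the diaphragm, 7 were higher and 2 lower in gate cells, among them the diaphragm protein gene Plvap at 604 and 818 CPM in CCl4 and 595 and 598 CPM in corn oil gate cells against 210 to 283 CPM in the others (log2 1.42). Of 16 coagulation genes 6 were higher and 1 lower, of 14 adhesion genes 7 were higher and 1 lower, and of 31 matrix genes 7 were higher and 4 lower, with 4 higher without CCl4 mouse 2 and 2 lower without either CCl4 mouse. Of 13 vascular tone genes 6 were higher and 1 lower, but without CCl4 mouse 1 or CCl4 mouse 2 only 2 were higher, and without corn oil mouse 1 there were 3. Of 14 Notch genes 2 were higher and 6 lower, with 2 lower without CCl4 mouse 1 or CCl4 mouse 2 and 4 without either corn oil mouse. Of 15 VEGF, apelin and angiopoietin genes 3 were higher, including the atypical chemokine receptor gene Ackr3 (log2 3.09), and 7 lower, with counts of 5 lower without either CCl4 mouse and 5 higher in DESeq2.

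**Figure D3:**
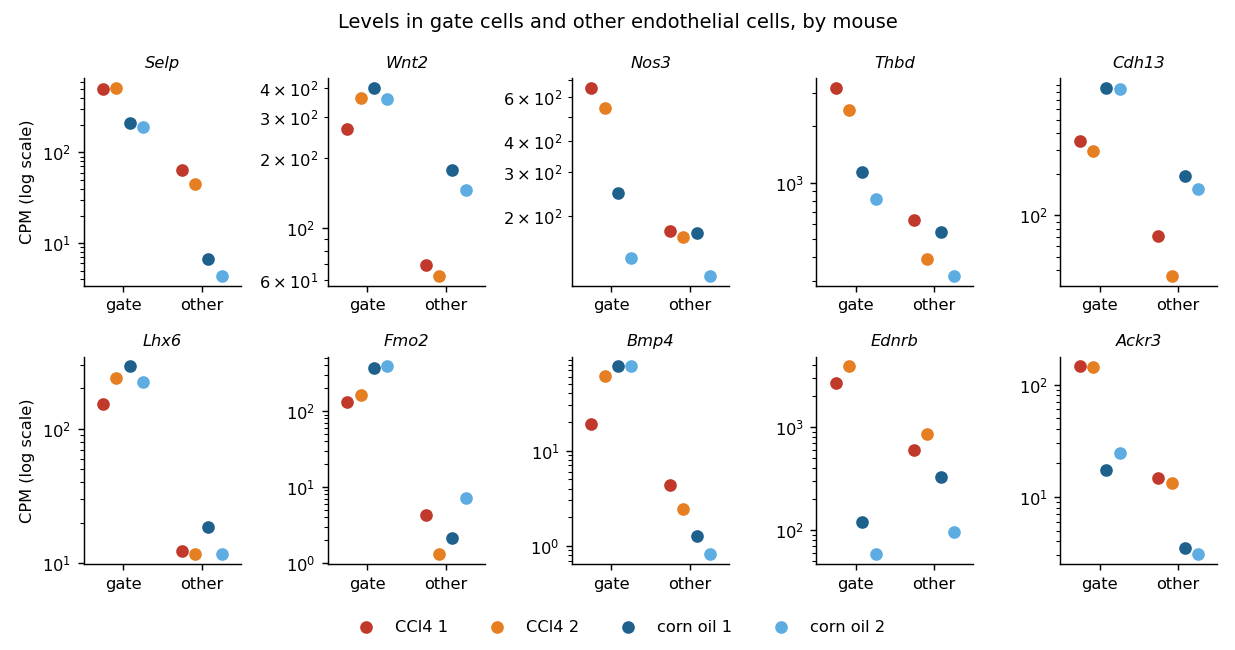
Levels of 10 genes in gate cells (left of each panel) and other endothelial cells (right), in CPM on a log axis, with 1 point per mouse. Selp, Lhx6, Fmo2, Bmp4 and Ackr3 are higher in gate cells in every mouse, as is Wnt2 with 268 to 400 CPM in gate cells, whereas Ednrb is higher in gate cells only in the CCl4 mice.

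CCl4 and corn oil gate cells were then compared, to ask how the cells of the gate differed after 5 weeks of dosing. Summed UMIs per mouse were tested with edgeR as above, with no block. Of 9971 genes tested, 1550 (15.5%) were called, 836 (8.38%) higher and 714 (7.16%) lower in CCl4, and the groups overlapped in 0 of them. The shares of 8.38% and 7.16% are the background for each list count of this comparison. Unless a mouse is named beside it, a called gene named below kept its call whichever mouse was left out. Each such fit leaves 1 mouse in a group, and its adjusted p was often smaller than with all mice. A call kept or lost in it is therefore a weak check. The separate run of the CCl4 1 table bears on all of them, and without that mouse 564 genes were higher and 534 lower.

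Vein genes went in both directions. Of the 12 central vein and pericentral genes outside the gate, 5 rose and 4 fell, with a median log2 change of -0.31 beside -0.0028 over all genes tested. Selp rose to 493 and 514 CPM in CCl4 gate cells, against 210 and 193 CPM in corn oil gate cells (log2 1.30 ± 0.16, edgeR adjusted p = 0.000696). Among low-load cells it was at 674 and 634 CPM in CCl4 and 698 and 656 CPM in corn oil, and the groups overlapped. Among cells at 60 or more it was at 273 and 245 CPM in CCl4 and 131 and 124 CPM in corn oil, with no overlap. The groups were thus apart in Selp on the high-load side only, and the share of low-load cells was larger in CCl4. Loads differed between groups on both sides of 60. The part of each of these in the Selp difference of the sums was not tested. Nos3 was at 653 and 542 CPM in CCl4 and 247 and 135 CPM in corn oil (log2 1.62 ± 0.26, edgeR adjusted p = 0.00316). It was higher in CCl4 on both sides of 60, with 821 and 615 CPM in CCl4 and 462 and 223 CPM in corn oil low-load cells. Thbd, which turns thrombin towards protein C activation, was at 3198 and 2437 CPM in CCl4 and 1144 and 816 CPM in corn oil (log2 1.51 ± 0.22, edgeR adjusted p = 0.00181). In low-load cells Thbd was at 3746 and 2732 CPM in CCl4 and 1096 and 775 CPM in corn oil, and in cells at 60 or more at 2533 and 1775 CPM in CCl4 and 1152 and 823 CPM in corn oil, so it was apart on both sides. Ackr1 rose as well (log2 1.78 ± 0.29, edgeR adjusted p = 0.00316).

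Other vein genes fell. Cdh13 was at 352 and 298 CPM in CCl4 gate cells and 853 and 835 CPM in corn oil gate cells (log2 -1.39 ± 0.17, edgeR adjusted p = 0.000718). It was lower in CCl4 on both sides of 60, with 397 and 346 CPM in CCl4 and 1459 and 1447 CPM in corn oil low-load cells. At 60 or more it was at 296 and 190 CPM in CCl4 and 756 and 745 CPM in corn oil. Ptgs1, the constitutive cyclooxygenase, fell by 0.77 on the log2 scale. Vwf, the platelet tethering factor, was at 113 and 192 CPM in CCl4 and 300 and 224 CPM in corn oil and was called narrowly (log2 -0.82 ± 0.24, edgeR adjusted p = 0.0462). That call was lost without CCl4 mouse 1 or corn oil mouse 1, with library totals alone as scale, and in 2 other forms of the gate. In low-load cells alone Vwf was at 163 and 263 CPM in CCl4 and 1876 and 1479 CPM in corn oil, a wider gap than in the sums. Kit fell by 0.67 but lost its call without CCl4 mouse 2 or corn oil mouse 2, and Cd9, higher by 0.53, lost it without any 1 of the 4 mice. Wnt2, at 268 and 363 CPM in CCl4 and 400 and 360 CPM in corn oil, was not called (log2 -0.30 ± 0.18, edgeR adjusted p = 0.300), nor were Lhx6, which was called without CCl4 mouse 2, and Fabp4.

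**Figure D4:**
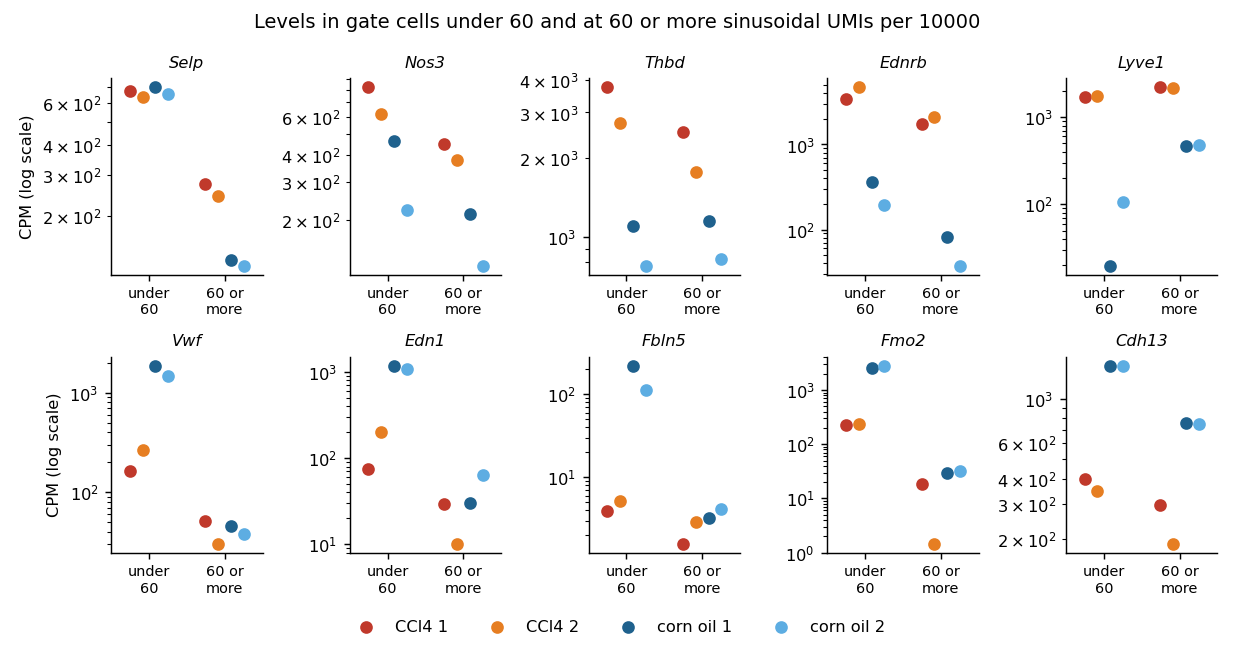
Levels of 10 genes in gate cells with a sinusoidal load under 60 (left of each panel) and at 60 or more (right), in CPM on a log axis, with 1 point per mouse. In low-load cells Selp is level across mice at 634 to 698 CPM, Ednrb, Thbd, Nos3 and Lyve1 are higher in CCl4, and Vwf, Edn1, Fbln5, Fmo2 and Cdh13 are lower in CCl4.

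A few genes picked after the levels of low-load cells had been seen were lower there in CCl4 than in corn oil. Edn1, the vasoconstrictor endothelin 1, was at 74.5 and 203 CPM in CCl4 and 1188 and 1077 CPM in corn oil low-load cells. Fmo2 was at 225 and 235 CPM in CCl4 and 2500 and 2835 CPM in corn oil low-load cells, and the elastic fibre gene Eln at 126 and 137 CPM in CCl4 and 785 and 569 CPM in corn oil. The fibulin genes Fbln2, at 279 and 505 CPM in CCl4 and 840 and 1224 CPM in corn oil, and Fbln5, at 3.89 and 5.15 CPM in CCl4 and 221 and 111 CPM in corn oil, lay the same way. In the sums over all gate cells, Edn1 (log2 -1.01 ± 0.33, edgeR adjusted p = 0.0687), Eln and Fbln2 were not called, though Edn1 was called without CCl4 mouse 2 (log2 -1.82) and Fbln2 without CCl4 mouse 1. In the same sums Fmo2 (log2 -1.40) and Fbln5 (log2 -2.87 ± 0.43, edgeR adjusted p = 0.00207) fell.

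Among genes of vascular tone, 3 of 12 rose and 1 fell, with 2 falls without either CCl4 mouse. Ednrb, the endothelin B receptor, was at 2679 and 3899 CPM in CCl4 gate cells and at 120 and 57.9 CPM in corn oil gate cells, a gap with no overlap (log2 5.16 ± 0.34, edgeR adjusted p = 3.96e-05, and 5.80 without corn oil mouse 1). With each cell thinned to 3000 UMIs, an Ednrb UMI was found in 91.3% and 93.6% of CCl4 and in 14.9% and 6.21% of corn oil gate cells. The thinned share in Kupffer cells was 24.9% and 14.1% in CCl4 and 16.6% and 12.5% in corn oil. Corn oil gate cells lay below the Kupffer cells of the same mouse. Those Kupffer cells carried endothelial RNA, as given above, so they do not set a background for Ednrb. Unthinned, the gate shares were 95.1% and 95.5% in CCl4 and 19.4% and 8.86% in corn oil. Ednrb was high in CCl4 on both sides of a load of 60, at 3471 and 4697 CPM in low-load cells and 1718 and 2103 CPM in the others, against 365 and 195 CPM in corn oil low-load cells and 81.0 and 37.6 CPM in the others. The gene lies at chr14:103814625-103844402 on the minus strand of GRCm38.

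Of 14 leukocyte adhesion genes, 6 rose and 1, Vwf, fell. E-selectin, from Sele, was at 219 and 118 CPM in CCl4 and 29.3 and 13.3 CPM in corn oil (log2 2.92 ± 0.38, edgeR adjusted p = 0.00106, and 3.65 without corn oil mouse 1). Cd34, a sialomucin of capillary endothelium, was at 126 and 179 CPM in CCl4 and 19.7 and 17.4 CPM in corn oil (log2 2.997 ± 0.23). Jam2, a junctional adhesion molecule, was at 1444 and 1747 CPM in CCl4 and 659 and 720 CPM in corn oil (log2 1.19 ± 0.16). Mcam (log2 1.96) and Ackr1 rose too. The inducible receptors Vcam1, at 218 and 127 CPM in CCl4 and 238 and 169 CPM in corn oil, and Icam1, at 135 and 109 CPM in CCl4 and 149 and 169 CPM in corn oil, were not called. The monocyte and macrophage marker sum given above was also higher in the CCl4 gate cells, and its part in these changes was not tested.

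Of 16 coagulation and fibrinolysis genes, 6 rose and 4 fell. Procr, the protein C receptor, was at 81.3 and 69.1 CPM in CCl4 and 14.5 and 6.15 CPM in corn oil (log2 2.78 ± 0.32, edgeR adjusted p = 0.000483, and 3.59 without corn oil mouse 1), beside Thbd above. The urokinase receptor Plaur was at 219 and 97.2 CPM in CCl4 and 19.0 and 14.9 CPM in corn oil (log2 3.20 ± 0.39, and 2.44 without CCl4 mouse 1), while its ligand urokinase, Plau, was at 17.8 and 16.9 CPM in CCl4 and 53.9 and 67.1 CPM in corn oil (log2 -1.81 ± 0.23). Receptor and ligand thus went opposite ways. Anxa2, a plasminogen docking protein, rose by 1.21 on the log2 scale. Plat was called higher, but not without CCl4 mouse 1. Gas6, a ligand of the TAM receptors, fell to 45.5 and 73.5 CPM in CCl4, against 437 and 389 CPM in corn oil (log2 -2.83 ± 0.22, edgeR adjusted p = 7.2e-05). F8 and Vwf, whose products circulate as a complex, were the other members that fell.

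Sinusoidal identity genes fell in CCl4 gate cells, which in part restates the lower sinusoidal load. All 7 genes of the load are among those that fell, while others, such as Ehd3 and Mrc1, lie outside it. Of 22 tested, 13 fell and 2 rose, with a median log2 change of -0.81. Ehd3, a membrane trafficking gene of the sinusoid, was at 959 and 891 CPM in CCl4 and 4681 and 6016 CPM in corn oil (log2 -2.55 ± 0.19). Dnase1l3, a secreted nuclease, fell by 2.15 on the log2 scale, Mrc1 by 1.67 and Stab2 by 1.30. The hyaluronan receptor gene Lyve1 went the other way, at 1910 and 1874 CPM in CCl4 and 408 and 428 CPM in corn oil (log2 2.16 ± 0.16, edgeR adjusted p = 5.88e-05). In low-load cells it was at 1679 and 1763 CPM in CCl4 and 19.9 and 107 CPM in corn oil, while Stab2 there was at 270 and 245 CPM in CCl4 and 12.4 and 67.6 CPM in corn oil. CCl4 low-load cells thus held more of both than corn oil low-load cells did. Stab2, unlike Lyve1, is among the genes of the load that chose these cells, so its level there follows from the choice in part. Genes of continuous endothelium and caveolae split, 5 up and 4 down of 18. Ly6c1, a capillary marker with a close paralog in Ly6c2, was at 104 and 89.1 CPM in CCl4 and 2.07 and 4.10 CPM in corn oil (log2 5.01 ± 0.32), and Ly6a rose by 1.84. The caveolin genes Cav1 and Cav2 fell by 0.98 and 0.93 on the log2 scale. Of 10 periportal genes 2 rose and 2 fell, and of 11 arterial and portal vessel genes 2 rose and 3 fell, with 1 fall without corn oil mouse 2. Of 5 lymphatic genes 0 were called by edgeR and 0 by DESeq2, and 1 had an unadjusted p under 0.05, with 2 falls without CCl4 mouse 1 and 1 without corn oil mouse 1.

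Basement membrane and matrix genes were the largest list and 12 of 29 rose while 8 fell. Genes of 2 collagen IV chains, which form the network of the basement membrane, rose. Col4a1 was at 2072 and 2021 CPM in CCl4 and 761 and 503 CPM in corn oil (log2 1.67 ± 0.21, edgeR adjusted p = 0.000797) and Col4a2 was at 1097 and 1027 CPM in CCl4 and 365 and 212 CPM in corn oil (log2 1.86 ± 0.24). Adamts4, an aggrecan protease, was at 401 and 181 CPM in CCl4 and 6.21 and 3.07 CPM in corn oil (log2 5.88 ± 0.48, with 5.13 without CCl4 mouse 1 and 6.54 without corn oil mouse 1). Timp1, a metalloproteinase inhibitor, was at 63.6 and 40.6 CPM in CCl4 and 3.11 and 4.10 CPM in corn oil (log2 3.86 ± 0.37), while Timp3 fell by 1.25 on the log2 scale. Bgn, Ltbp4 and Fbln5, parts of proteoglycan and elastic fibre matrix, fell too, with log2 changes of -1.54, -1.83 and -2.87. The stellate and fibroblast marker sum without Hgf was lower in the CCl4 gate cells, as given above. Most of that sum was Ecm1, at 80.3 and 98.9 CPM in CCl4 and 123 and 128 CPM in corn oil. Its member Col1a1, a fibrillar collagen gene, went the other way, at 7.81 and 10.3 CPM in CCl4 and 0.690 and 0.512 CPM in corn oil. The part of stellate and fibroblast RNA in these matrix changes was not tested.

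**Figure D5:**
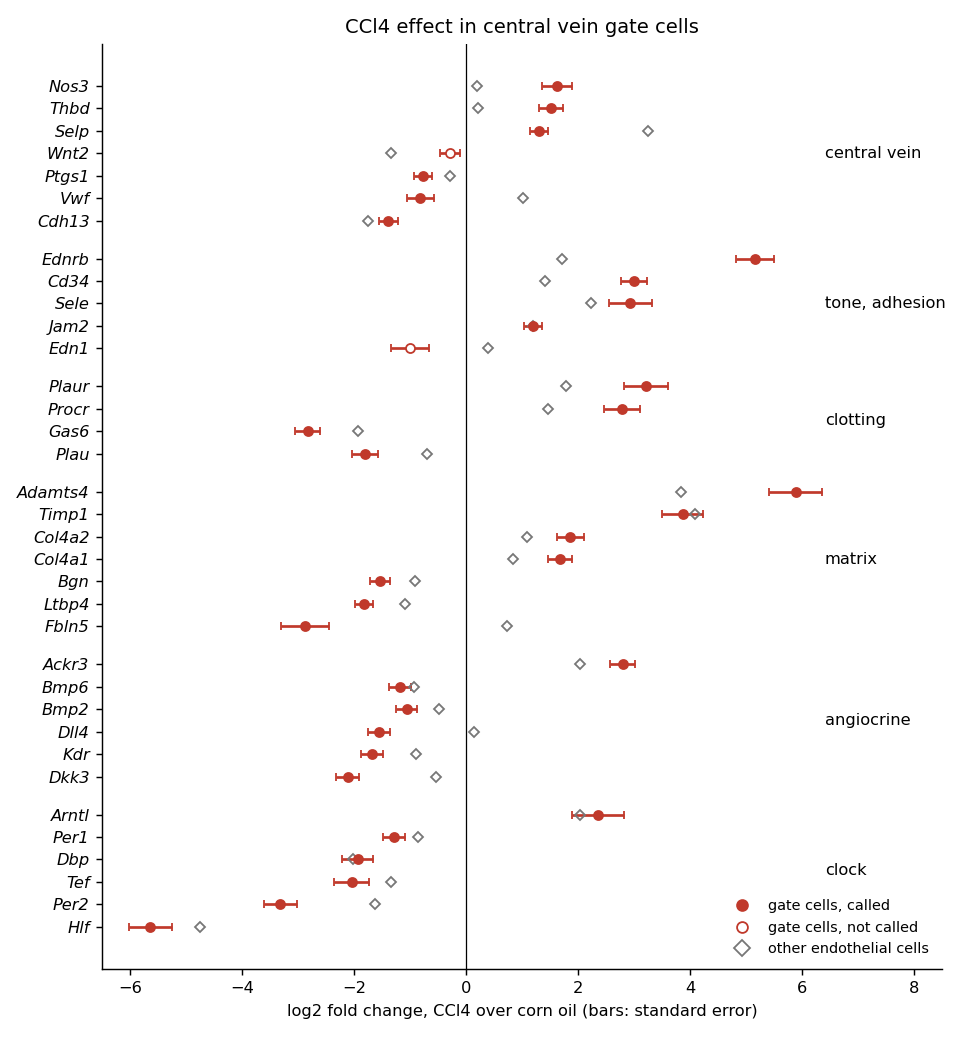
Log2 fold change of CCl4 over corn oil in gate cells (circles, filled where called, bars for SE) and in other endothelial cells (diamonds, no error shown), for 35 genes by role. Ednrb at 5.16 and Adamts4 at 5.88 are the furthest up and Hlf at -5.65 the furthest down, while Nos3 and Thbd lie near 0 in other endothelial cells.

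Of 16 Wnt and R-spondin pathway genes outside the gate, 6 fell and 1 rose. Dkk3, a secreted Dickkopf family member, was at 24.5 and 21.4 CPM in CCl4 and 105 and 92.7 CPM in corn oil (log2 -2.12 ± 0.21, edgeR adjusted p = 0.000185), and the Wnt co-receptor gene Lrp6 fell by 0.95. The other 4 that fell, Fzd4, Fzd8, Lrp5 and Tcf7l1, each lost the call without 1 mouse or more, and the count of falls was 4 without CCl4 mouse 1 and 3 without any other mouse. Tspan12, a Norrin co-receptor, rose by 1.11. Of 16 BMP pathway genes 5 fell and 2 rose, with 3 falls without corn oil mouse 2 and 1 rise without CCl4 mouse 1 or corn oil mouse 2. Bmp2 was at 992 and 1300 CPM in CCl4 and 2057 and 2657 CPM in corn oil (log2 -1.06 ± 0.19) and Bmp6, the other iron-sensing BMP of liver endothelium, fell by 1.19. Of 11 Notch genes 3 fell and 1 rose, with Dll4 lower by 1.56 and its rival ligand Jag1, at 49.7 and 47.2 CPM in CCl4 and 21.7 and 23.1 CPM in corn oil, higher by 1.10. Lfng, a Notch glycosyltransferase, fell by 2.52, and Hes1 was called lower but not without CCl4 mouse 2 or either corn oil mouse. Of 13 VEGF, apelin and angiopoietin genes 3 fell and 1 rose. The VEGF receptor Kdr was at 1302 and 1219 CPM in CCl4 and 3398 and 4621 CPM in corn oil (log2 -1.69 ± 0.19), its partner Nrp1 fell by 1.67, and the Cxcl12 scavenger Ackr3 was at 146 and 143 CPM in CCl4 and 17.3 and 24.6 CPM in corn oil (log2 2.79 ± 0.22).

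By the rule for named genes, the largest rises were in Sprr1a, Tnfrsf9, Sprr2a3, Itga2, Tubb3, Igfbp5, Sprr2b, Olr1, Npy, Col18a1, Steap2 and Adamts4. Several had no UMI in corn oil gate cells, so their fold is a lower bound against 3 counts over the group. Sprr1a, a small proline-rich protein of squamous epithelia, was at 60.4 and 37.4 CPM in CCl4 and at least 81.1-fold higher than in corn oil. Tnfrsf9 (at least 54.9-fold), Sprr2a3 (at least 51.1-fold) and Itga2 (at least 48.9-fold) were likewise at 0 in corn oil. Without corn oil mouse 1, these bounds were 32.7-fold for Sprr1a, 22.1-fold for Tnfrsf9, 20.6-fold for Sprr2a3 and 19.7-fold for Itga2, and without corn oil mouse 2 they were 48.5-fold, 32.8-fold, 30.5-fold and 29.2-fold. Without CCl4 mouse 1 the bound for Sprr2a3 was 28.8-fold. Sprr2b was at 813 and 484 CPM in CCl4 and 3.797 and 5.12 CPM in corn oil (log2 7.19 ± 0.37, edgeR adjusted p = 1.59e-05). The Sprr2 genes are near-identical copies of each other, so the split of reads among them is uncertain. Tubb3, a tubulin known from neurons, was at 256 and 120 CPM in CCl4 with 3 corn oil UMIs in all (ratio 317, 95% counting interval 108 to 1539, and 194 without CCl4 mouse 1). Olr1, an oxidised lipoprotein receptor, was at 89.5 and 40.6 CPM with 3 corn oil UMIs (ratio 110, interval 37.2 to 534). Its ratio was 65.5 without CCl4 mouse 1 or corn oil mouse 2, and without corn oil mouse 1, which held all 3, Olr1 was at least 44.1-fold higher. Npy, a neuropeptide, had 1 corn oil UMI (ratio 122, interval 21.5 to 4845), with a ratio of 72.7 without corn oil mouse 2 and at least 16.3-fold without corn oil mouse 1. Col18a1, the endostatin collagen, had 3 (ratio 78.3, interval 26.5 to 382), with 47.3 without corn oil mouse 1 and 140.3 without corn oil mouse 2. Igfbp5, an insulin-like growth factor binding protein, was at 140 and 317 CPM in CCl4 and 0.345 and 2.05 CPM in corn oil (log2 7.67 ± 0.58, with 7.02 without CCl4 mouse 2, 6.73 without corn oil mouse 1 and 9.14 without corn oil mouse 2). In low-load cells Sprr2b was at 1333 and 669 CPM in CCl4 and 24.9 and 35.8 CPM in corn oil. Igfbp5 was there at 248 and 450 CPM in CCl4 and 2.49 and 0 CPM in corn oil. The corn oil low-load sums held only 402381 and 251537 UMIs, so a count of 0 there allows more than the limits of the whole gate.

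The largest falls were in Thrsp, Hlf, Ntf3, Cntfr, Ackr4, Rasgrf2, Depp1, Pla2r1, Slco2b1, Prelp, Gpr155 and Car3. Cntfr, the receptor of ciliary neurotrophic factor, was at 11.7 and 6.68 CPM in CCl4 and 128 and 221 CPM in corn oil (log2 -4.21 ± 0.35, edgeR adjusted p = 9.02e-05). Ackr4, a scavenger of the chemokines that steer lymphocytes and dendritic cells, was at 6.04 and 8.91 CPM in CCl4 and 138 and 106 CPM in corn oil (log2 -4.07 ± 0.27). Prelp, a basement membrane anchoring proteoglycan, was at 30.9 and 32.1 CPM in CCl4 and 374 and 292 CPM in corn oil (log2 -3.42 ± 0.20). Thrsp, a lipogenic gene, had 2 UMIs in CCl4 (ratio 0.0164, interval 0.00196 to 0.0605). None of these groups overlapped, but Car3 lost its call in DESeq2.

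Hlf led a fall of clock genes. Of 17 circadian genes tested, 9 fell and 1 rose, with a median log2 change of -1.42, and without CCl4 mouse 1 there were 10 falls and the rise was lost. Hlf, a PAR bZIP factor that is an output of the clock, was at 1.42 and 6.68 CPM in CCl4 and 177 and 204 CPM in corn oil (log2 -5.65 ± 0.38, edgeR adjusted p = 4.76e-05, with -4.89 without CCl4 mouse 1 and -7.01 without CCl4 mouse 2). Its relatives Tef, at 18.8 and 37.4 CPM in CCl4 and 87.7 and 139 CPM in corn oil, and Dbp, at 35.2 and 65.1 CPM in CCl4 and 220 and 153 CPM in corn oil, fell by 2.04 and 1.94. The repressor Per2 was at 6.39 and 11.1 CPM in CCl4 and 70.4 and 101 CPM in corn oil (log2 -3.32 ± 0.30), Per1 was at 32.7 and 33.4 CPM in CCl4 and 77.3 and 83.0 CPM in corn oil (log2 -1.29 ± 0.19) and Cry2 fell by 2.25. Arntl, the activator that the repressors act on, was at 16.7 and 11.1 CPM in CCl4 and 2.76 and 2.56 CPM in corn oil, and its call was lost without CCl4 mouse 1. Ciart lost its call without corn oil mouse 1, and Bhlhe41 did not pass the filter on low counts without that mouse and was not tested. The labels do not give the hour at which each mouse was killed, so hour and treatment cannot be told apart for these genes.

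The clock activators bind the E-box CACGTG, a palindrome that reads the same on both strands. In RefSeq promoter windows of GRCm38.p6, the 250 bases before each gene's start were searched, and 1978 of 32851 windows (6.02%) held it. Of the 9 clock genes that fell, 8 had a window and 4 held the E-box, namely Per1, Tef, Ciart and Bhlhe41. Among all 16 clock genes with a window, 5 held it, Cry1 being the one that did not fall. A gene counts here if any of its windows held the E-box, whereas the 6.02% is a share of windows. Another window of Per1 had no E-box. The 100 bases around it are shown for Per1 and Tef, both on the plus strand, because these hold the motif in sequence free of annotated exons and their fall did not rest on 1 mouse. Capitals mark the E-box, which begins 166 bases before a RefSeq start of Per1 at chr11:69098736-69098835 and 138 bases before one of Tef at chr15:81811229-81811328.
Per1: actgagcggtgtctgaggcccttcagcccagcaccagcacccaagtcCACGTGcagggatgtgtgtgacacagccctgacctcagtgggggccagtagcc
Tef: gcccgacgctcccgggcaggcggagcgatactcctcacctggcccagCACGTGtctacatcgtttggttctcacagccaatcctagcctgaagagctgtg
A match is a description of the sequence and not a measured binding site. Nr1d2, Cry2, Per2, Dbp and Hlf, of which 4 have a window without the motif, fell as well.

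Inflammatory and stress genes were mixed. Over all genes tested, 8.38% rose and 7.16% fell. The counts of transcription factors and cell cycle genes, and of interferon rises, were near these shares. Of 22 inflammation and acute phase genes 8 rose and 3 fell, with 7 falls without CCl4 mouse 1. Serpina3n, an acute phase protease inhibitor of a family with close paralogs, was at 636 and 728 CPM in CCl4 and 26.6 and 23.6 CPM in corn oil (log2 4.73 ± 0.19, edgeR adjusted p = 3.58e-06). The cholesterol hydroxylase Ch25h was at 232 and 87.8 CPM in CCl4 and 9.67 and 6.66 CPM in corn oil (log2 4.25 ± 0.49, and 3.32 without CCl4 mouse 1), and the monocyte attractant Ccl2 was at 130 and 61.5 CPM in CCl4 and 17.3 and 8.20 CPM in corn oil (log2 2.85 ± 0.42, with 2.15 without CCl4 mouse 1 and 3.54 without corn oil mouse 1). Of 23 interferon response genes 2 rose and 4 fell, of which both rises lost the call without 1 mouse, and 1 rise was called in DESeq2. Of 4 MHC class II genes 2 fell, with H2-Ab1 lower by 1.71, and the count was 1 without corn oil mouse 1 and 4 without corn oil mouse 2, and 1 in DESeq2. Of 28 immediate early and dissociation stress genes 12 fell and 3 rose, with Fos at 2816 and 2921 CPM in CCl4 and 6266 and 7052 CPM in corn oil (log2 -1.23 ± 0.16), and without CCl4 mouse 2 or corn oil mouse 1 the rises numbered 9 and 7, and 1 in DESeq2. Of 25 genes of endoplasmic reticulum folding and secretion 13 rose, with Calr, a calcium-binding chaperone, at 1611 and 1698 CPM in CCl4 and 956 and 1031 CPM in corn oil (log2 0.72 ± 0.15, edgeR adjusted p = 0.0121). Of 16 cell cycle genes 1 rose and 1 fell, with 3 rises without CCl4 mouse 2 and 2 falls without CCl4 mouse 1 or corn oil mouse 2. Cdkn1a rose (log2 2.04, with 0.91 without CCl4 mouse 1 and 2.66 without CCl4 mouse 2, and no call in DESeq2) and Ccnd1 fell to 84.5 and 93.1 CPM in CCl4, against 503 and 336 CPM in corn oil (log2 -2.26 ± 0.22). Of 28 endothelial transcription factors 3 rose and 2 fell, with 4 falls without CCl4 mouse 1 and 1 without corn oil mouse 2. Among them Myc was at 158 and 79.8 CPM in CCl4 and 11.4 and 6.66 CPM in corn oil (log2 3.66 ± 0.39, and 3.03 without CCl4 mouse 1).

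Whether these changes were larger or smaller than in the other endothelial cells was tested as an interaction of cell kind with treatment, with the mouse as a block. Of 12132 genes, 1124 (9.26%) were called, 566 (4.67%) with a higher and 558 (4.6%) with a lower CCl4 effect in gate cells. Ednrb had the smallest p of all, and its level in other endothelial cells was 598 and 856 CPM in CCl4 and 330 and 96.2 CPM in corn oil (interaction log2 3.44 ± 0.15, edgeR adjusted p = 8.88e-08). Nos3 (1.46 ± 0.12) and Thbd (1.32 ± 0.11) also rose more in gate cells, with effects of 0.19 and 0.21 in the other cells that were not called. Selp rose less in gate cells than in the others (interaction log2 -1.901 ± 0.20, edgeR adjusted p = 4.4e-05), where it rose by 3.24 on the log2 scale. Wnt2 had a higher effect in gate cells (1.06 ± 0.15), and it fell by 1.35 on the log2 scale in the other cells. Vwf (-1.85 ± 0.13) and Dll4 (-1.69 ± 0.13) had lower effects in gate cells. Of 23 sinusoidal identity genes 15 had a lower and 2 a higher effect in gate cells, and the counts were 15 or 16 and 2 without each mouse. Of 23 inflammation genes 10 had a lower and 1 a higher effect, Serpina3n among the lower (-2.30 ± 0.20), and of 23 interferon genes 8 had a lower effect, with 12 without CCl4 mouse 2. Of 24 cell cycle genes 7 had a higher effect in gate cells, with 2 without CCl4 mouse 1 and 1 in DESeq2. The different mixes of low-load and high-load gate cells in the 2 groups enter these differences too, and their part was not tested.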

How the data were processed

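Single-cell libraries (BD Rhapsody whole transcriptome) of 4 mice, 1 mouse a library per the labels, were analysed from the deposited tables of UMI counts per cell and gene, which the authors made with the BD WTA Rhapsody Analysis Pipeline 1.9.1 on GRCm38 and GENCODE vM19, per the file headers. Reads were aligned by a tool not given in the sources used here. Libraries held 45408857 to 55529871 UMIs in 5948 to 7663 cells (27091 in all). Cells were gated as described above with no doublet removal, and the 5% of cells with the highest Scrublet scores were left out in an alternative. UMI counts of gate cells and of other endothelial cells were summed per mouse and tested with edgeR 4.0.16 in R 4.3.3. The quasi-likelihood test was used with TMM factors, filterByExpr and a Benjamini-Hochberg adjusted p under 0.05. For CCl4 against corn oil the p-values measure the spread between 2 mice a group. With the mouse as a block, they measure the spread, between mice, of the difference of the 2 kinds of cell within a mouse. Wilson intervals and limits of 0 counts (3 counts) cover counting error only. Errors are SE of the log2 change unless SD is written.

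Named genes were, for CCl4, the 12 called genes with the largest positive and the 12 with the largest negative log2 change, with a mean of at least 20 CPM in the higher group and no overlap of groups. Against other endothelial cells they were the 12 highest and 8 lowest with the same minimum level and the same sign in all 4 mice, and for the interaction the 10 with the smallest p. List members were named besides, and the lists were central vein, periportal, arterial and portal vessel, lymphatic, sinusoidal, continuous endothelium, Wnt, BMP, vascular tone, adhesion, coagulation, matrix, VEGF, Notch, transcription factors, clock, interferon, MHC class II, inflammation, immediate early, cell cycle and endoplasmic reticulum genes. The cells' rule, the lists and the genes were chosen with earlier results of these data known, so they are no independent evidence.

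Alternatives were other gates, a mitochondrial limit of 15%, thinned cells, other scalings, no filter on low counts, limma-voom (limma 3.58.1), DESeq2 1.42.0, the replicate number as a block and leaving out each mouse. The fits were tested on simulated data. Promoter sequences are from RefSeq (GRCm38.p6) and gene coordinates from the GENCODE vM21 annotation of the same build. Counts were not stated to use strand, so overlapping genes on opposite strands are uncertain.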

Additional observations from a re-analysis of the deposited data

Results flagged for a closer look

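The CCl4 effect differed between gate cells and other endothelial cells, by the edgeR interaction test, in the 10 genes with the smallest p. Each value here is the effect in gate cells minus that in the other endothelial cells, on the log2 scale. Ednrb (3.44) and Igfbp5 (7.35) differed upwards by the most. Igfbp5 was at 24.0 and 29.4 CPM in CCl4 and 19.1 and 22.4 CPM in corn oil among the other cells, and its difference was 6.53 without corn oil mouse 1 and 8.78 without corn oil mouse 2.

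Fxyd5, a regulator of the sodium pump, differed by 1.79, with 486 and 574 CPM in CCl4 and 97.4 and 71.7 CPM in corn oil gate cells against 185 and 205 CPM in CCl4 and 119 and 90.2 CPM in corn oil among the others. The filamin gene Flna differed by 1.66, with 609 and 585 CPM in CCl4 and 130 and 79.4 CPM in corn oil gate cells. The tubulin gene Tuba1a differed by 1.63 and the membrane gene Myadm by 1.63, with Myadm at 794 and 636 CPM in CCl4 and 199 and 208 CPM in corn oil gate cells. Slc26a10, of the anion exchanger family, differed by 1.60, with levels of 377 and 462 CPM in CCl4 and 329 and 257 CPM in corn oil gate cells and 81.9 and 104 CPM in CCl4 and 208 and 171 CPM in corn oil among the others.

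Fabp4 differed by -1.42, with 1552 and 1616 CPM in CCl4 and 2094 and 1792 CPM in corn oil gate cells and 1142 and 1236 CPM in CCl4 and 553 and 496 CPM in corn oil among the others. Cyp4b1, a cytochrome P450 gene, differed by -1.65, with 113 and 106 CPM in CCl4 and 430 and 404 CPM in corn oil gate cells. The integrin subunit gene Itga1 differed by -1.27, with 391 and 372 CPM in CCl4 and 742 and 952 CPM in corn oil gate cells. Groups of 2 mice are too small for a test of single outlying mice.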

How the results depend on the processing

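The share of endothelial cells in the gate turned to -0.115 percentage points in cells thinned to 1500 UMIs and to -1.62 points among all cells kept. It stayed higher in CCl4 in every other alternative, by 0.332 to 2.34 points, and by 0.188 to 2.28 points with each mouse left out. Of the genes changed by CCl4, counts lay between 1081 and 2170 in the other alternatives and between 1060 and 1768 with each mouse left out, and 690 of 1549 called genes outside the gate kept the call in every alternative but the replicate block. With the replicate number as a block the count was 2721, which held all 1550 genes. Same-numbered mice deviated together with r = 0.188 across 9971 genes, but with 2 pairs they share only a number. The share with same-numbered mice as a replicate block had an exact p of 0.5.

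The genes that differ between gate and other endothelial cells numbered 535 to 1060 with each mouse left out, the lowest being without CCl4 mouse 2 and 674 being without CCl4 mouse 1, and 1192 to 1585 in the other alternatives. The genes whose CCl4 effect differed numbered 954 to 1434 with each mouse left out, 553 in DESeq2 and 897 to 1399 in the other alternatives. The cause of these moves was not tested. Among genes described above, other alternatives than a mouse left out moved several fold changes by over 1.5 times. Under CCl4 they reached 4.15 to 5.75 for Ly6c1, -5.02 for Cntfr, -1.91 for Stab2 and -2.49 to -1.12 for H2-Ab1. Against other endothelial cells they reached 7.56 for Fmo2, 8.87 for Nts, 7.47 for Inhba, 6.91 for Tgfb2, 5.66 for Bmp4, 2.83 for Vwf, -3.11 for Msr1 and -4.001 for Gja5, and for the interaction -3.07 for Serpina3n. Of the called genes, 0 turned direction for CCl4. Between gate and other endothelial cells, 16 turned in other alternatives, and for the interaction 4 turned with a mouse left out and 4 in other alternatives. With 2 mice a group and gate cells that mix low and high sinusoidal loads, small changes and genes near 1 CPM are beyond the depth here.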
